A study of Homo sapiens with 16 samples.

Results

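The genes described here are the D cyclins, the cyclin-dependent kinases and the CDK inhibitors that govern the passage of a cell out of G1: CCND1, CCND2, CCND3, CDK2, CDK4, CDK6, CDKN1A, CDKN1B, CDKN1C and CDKN2B. They are 10 of the 18190 gene symbols on the array. A probe was taken when its symbol equalled that of a member, with the brightest detected probe to be kept where there were several, and each of the 10 genes turned out to have 1 probe. Expression was followed in MCF10HER2 cells, a human breast epithelial line derived from nontransformed MCF10A cells by stable transduction with the HER2 oncogene. The cells were grown without serum or insulin but with 10 ng/ml EGF, and every treated culture received CP724,714, a small molecule that blocks the HER2 kinase, at 1 µM. Parallel cultures were harvested every 3 h from 0 to 45 h and hybridised to 1 Illumina Ref-8 array each, giving 16 arrays of which the 0 h array is the untreated one. There are no replicates, fresh medium was given together with the inhibitor, and a later untreated culture was not analysed here, so the effects of the inhibitor, of fresh medium and of time in culture cannot be told apart. The question was how the G1 regulators moved over the course and how their timing compared with that of replication genes such as MCM2 and CCNE2.

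In outline, D-type cyclins activate CDK4 and CDK6, which begin the phosphorylation of the retinoblastoma protein and its relatives and so release E2F transcription factors. Cyclin E with CDK2 completes this step, and E2F then drives the genes that license and copy DNA. The Cip/Kip inhibitors p21 (CDKN1A), p27 (CDKN1B) and p57 (CDKN1C) bind cyclin-CDK complexes and can halt CDK2, whereas the INK4 inhibitors, p15 (CDKN2B) among them, bind CDK4 and CDK6 directly. In epithelial cells HER2 and EGF signaling are known to raise cyclin D1 and to hold down p27.

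The arrays from 0 to 21 h had a background signal of 135.9 to 148.9 and those from 24 to 45 h of 164.5 to 173.9, so the course falls into 2 sets of 8 arrays whose difference cannot be told apart from time, and slopes are therefore also given within each set. The 9 h and 18 h arrays were dim, with an upper quartile signal of 397 and 418. Basal epithelial markers KRT5 and KRT17 and the epithelial markers TACSTD1 and ITGB4 were detected on all 16 arrays, CDH1 on 15 at a low level, LAMB3 on 2 although above the signal cut on 16, and KRT14 on 1. Markers of T cells (CD3D), endothelium (VWF, CDH5) and fibroblasts (PDGFRB) were detected on 0 arrays, while CD14 and PECAM1 were detected on 16 at low levels of 8.01 to 8.47 and 7.97 to 8.36, PTPRC on 7 and COL3A1 on 2. The ERBB2 probe read only 7.93 to 8.01 and was detected on 7 arrays, so it gives no check of the overexpressed receptor. Levels throughout are normalized log2 intensities, in which background lies near 7.81, and a difference of 1 is a doubling. In RNA from a whole culture, fewer cells in a phase of the cycle and less RNA per cell cannot be told apart.

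Of the 10 genes, 8 were expressed at a level that could be followed. CCND2 and CDKN2B were detected on 0 arrays, with raw signals of 122.6 to 172.9 and 132.9 to 198.4, within the range of background. The detection p-value deposited for CDKN2B did not follow its signal, as in 7.2% of the rows, but that signal lay below the detection cut of its array on all 16 arrays. The courses of the remaining genes differed. CDKN1A fell in 2 steps and CDK2 rose, both first seen at 6 h, and CDK2 was higher again from 12 h. With arrays scaled to a common median, CDKN1A was already 0.63 lower at 3 h and reached its late level at 9 h before a partial return. CDK4 dipped from 3 to 9 h and was back at 12 h. CDK6 fell, with a fitted span of 1.15, but its calls depended on how the arrays were scaled. The D cyclins and CDKN1B had narrower fitted curves with quantile normalization, and several of their changes also depended on the scaling. CDKN1C changed at a level close to background.

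**Figure D1:**
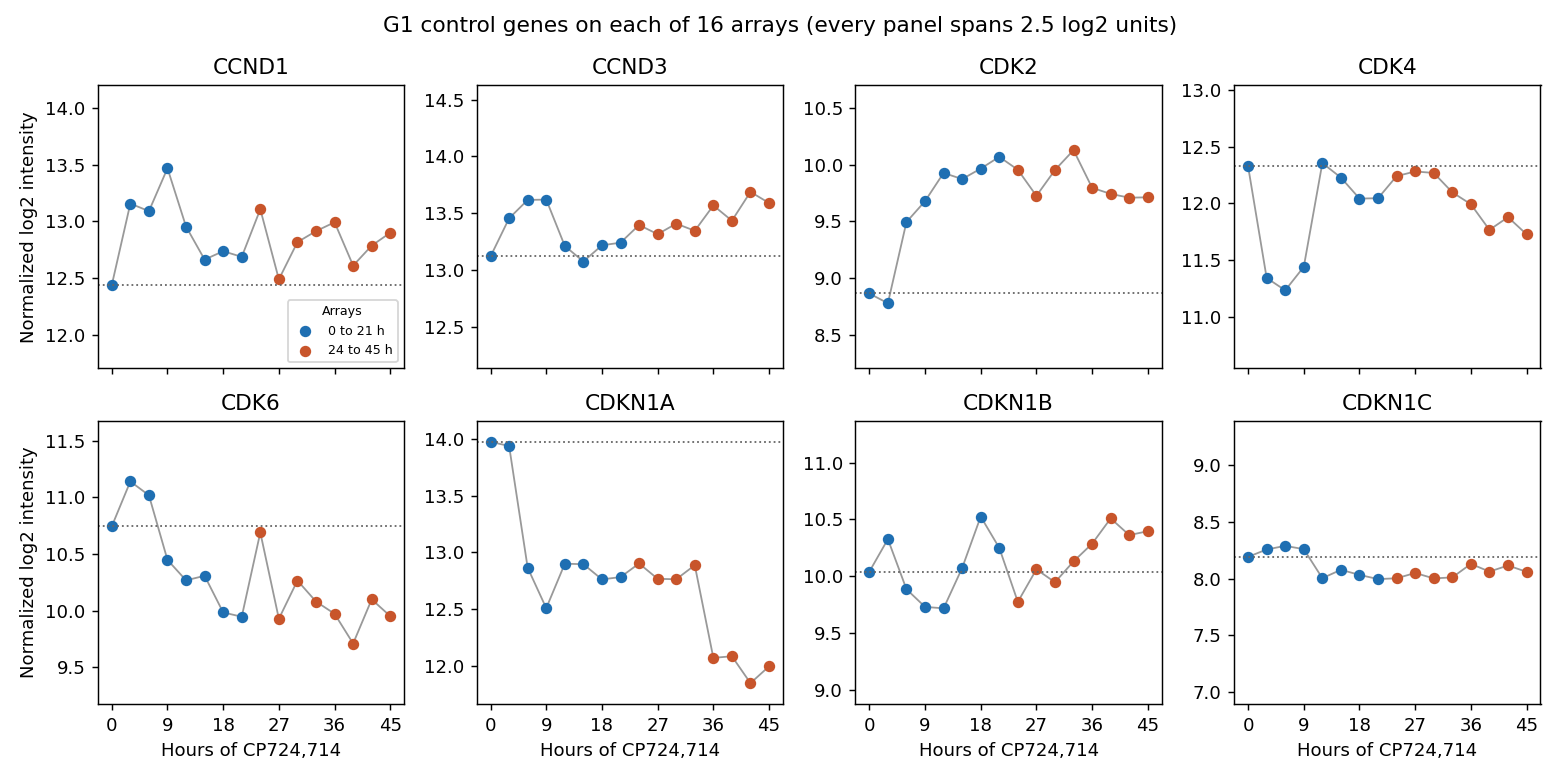
Normalized log2 intensity (vertical axis, every panel spanning 2.5 log2 units) of the 8 detected genes against hours of CP724,714 (horizontal axis). Each point is 1 array, blue from 0 to 21 h and orange from 24 to 45 h, the dotted line is the untreated array, and CDKN1A shows the widest course, from 13.97 at 0 h to 11.85 at 42 h.

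Time dependence was tested with a curved fit over the 16 arrays (a natural cubic spline in limma, adjusted over 12321 probes). It was called for CDK2, CDK6, CDKN1A and CDKN1C, 4 of the 8 genes tested, beside 41.9% of all tested probes, a share close to that of the group. A change of 1.7-fold against the 0 h array, the threshold of the study, was reached at some hour by 5 of the 8, beside 19.5% of all tested probes. This criterion has no error term and rests on the single 0 h array. The genes were CCND1 (up, at 1 hour), CDK2 (up, at 13 of 15), CDK4 (down, at 3), CDK6 (down, at 5) and CDKN1A (down, at 14). The single hour of CCND1, on the dim 9 h array, was lost under median scaling, whereas CDKN1B passed there (0.83 below 0 h at 9 h), so that the count stayed at 5.

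CDKN1A encodes p21, an inhibitor of CDK2 complexes that is induced by p53 and by strong mitogenic signals. It had the widest fitted curve of the 8. Its level was 13.97 at 0 h and 13.94 at 3 h, 12.86 and 12.51 at 6 and 9 h, 12.90, 12.90, 12.76 and 12.78 from 12 to 21 h, 12.90, 12.77, 12.76 and 12.89 from 24 to 33 h, and 12.07, 12.08, 11.85 and 11.99 from 36 to 45 h. With quantile normalization the course was thus a high pair of arrays, a plateau of 8 arrays from 12 to 33 h that span only 12.76 to 12.90, and a lower step of 4 arrays that do not overlap the plateau. All 15 treated arrays lay below the untreated one, the lowest 4.37-fold below it at 42 h. The fitted curve spanned 2.23 (adjusted p = 3.79e-05, limma), and a straight line fell by 1.54 ± 0.26 (SE) over 45 h with an adjusted p of 0.000302.

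Both steps of CDKN1A showed within the sets of arrays. The slope from 0 to 21 h was -1.15 ± 0.31 (SE) over 21 h (adjusted p = 0.0113, limma). From 24 to 45 h it was also -1.15 ± 0.31, with an adjusted p of 0.0414. The late step was sharper than a slope describes: the mean of 36-45 h lay 0.83 ± 0.08 (SE) below that of 24-33 h, with an adjusted p of 1.87e-06 that kept its call when any 1 array was left out. The slopes were less firm. The late slope lost its call without any 1 of 10 of the 16 arrays, with adjusted p-values up to 0.137, and the early slope without the 0 h or the 3 h array. With arrays scaled to a common median in place of quantile normalization, the 3 h value already lay 0.63 below 0 h, the early slope was -0.77 (adjusted p = 0.166) and the late slope -1.15 (adjusted p = 0.126), neither past the threshold. The late step was -0.81 on that scale, with an adjusted p of 0.00205.

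CDK2, the kinase that partners cyclins E and A, rose in the hours in which CDKN1A first fell. Its level was 8.86 at 0 h and 8.78 at 3 h, 9.49 and 9.68 at 6 and 9 h, 9.93, 9.87, 9.96 and 10.07 from 12 to 21 h, 9.95, 9.72, 9.95 and 10.13 from 24 to 33 h, and 9.80, 9.74, 9.71 and 9.71 from 36 to 45 h. Every array from 6 h on lay above both of the first arrays, and the highest, at 33 h, was 2.40-fold above 0 h. Under median scaling CDK2 lay 0.46 and 0.35 above 0 h at 6 and 9 h, and 1.265 above it at 12 h. On that scale the mean of 12-21 h lay 0.83 above that of 6-9 h. The curve spanned 1.26 (adjusted p = 0.000108, limma). The slope over the first 21 h was 1.31 ± 0.20 (SE), with an adjusted p of 0.000247, and it turned to -0.23 ± 0.20 over the later 21 h. The difference of the slopes, -1.54 ± 0.28 (SE), passed the test with an adjusted p of 0.00185, so the rise belonged to the early arrays. All 3 of these calls held under median scaling and without any 1 array.

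CDK4, the kinase partner of the D cyclins, fell early and came back. Its level was 12.33 at 0 h and then 11.34, 11.23 and 11.44 at 3, 6 and 9 h, 12.36, 12.23, 12.04 and 12.05 from 12 to 21 h, 12.24, 12.28, 12.27 and 12.10 from 24 to 33 h, and 11.99, 11.77, 11.88 and 11.73 from 36 to 45 h. The arrays of 3 to 9 h lie apart from the other 13, with the lowest, at 6 h, 2.13-fold below 0 h. Under median scaling the lowest was the 3 h array, 1.74 below 0 h on the log2 scale in place of 0.98. Each of the 4 last arrays lay below all those of 24 to 33 h. Under median scaling they overlapped, with 11.92 at 33 h below 12.01 at both 36 and 42 h, and the late decline was 0.38 (adjusted p = 0.342, limma). The return between 6-9 h and 12-21 h was 0.83 ± 0.18 (SE; adjusted p = 0.00142, limma) and was called without any 1 array and under median scaling, where it was 1.32. The late decline of 0.38 ± 0.15 (SE) from 24-33 h to 36-45 h did not pass (adjusted p = 0.0747), but it did without the 0 h or the 3 h array (-0.38, adjusted p = 0.00286 at the lowest). The spline gave an adjusted p of 0.166 with all arrays and 0.00155 without the 0 h array, and it also passed without the 12 h array.

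CDK6, the close relative of CDK4, took another course. It read 10.74 at 0 h, 11.14 and 11.02 at 3 and 6 h, 10.45 at 9 h, 10.27, 10.31, 9.98 and 9.95 from 12 to 21 h, 10.69, 9.93, 10.26 and 10.08 from 24 to 33 h, and 9.97, 9.71, 10.10 and 9.95 from 36 to 45 h. Every array from 9 h on lay below the first 3, the 24 h array by the least. The straight line fell by 0.99 ± 0.22 (SE) over 45 h with an adjusted p of 0.00279, and the early slope was -1.14 ± 0.24 (SE; adjusted p = 0.00237, limma). Median scaling ended both calls (-0.55 with adjusted p = 0.143, and -0.67 with adjusted p = 0.165), and on that scale the 3 h array lay 0.25 below 0 h in place of 0.40 above it. The calls of CDK6 therefore rest on the normalization.

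**Figure D2:**
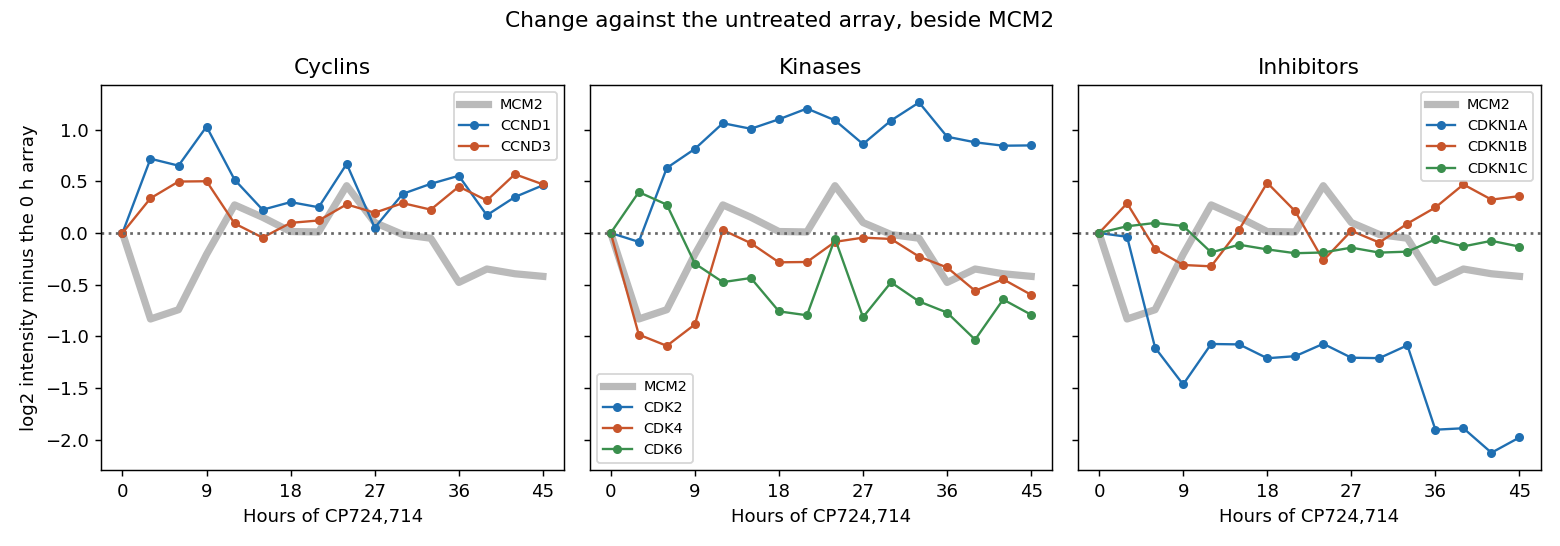
Change of each detected gene against the untreated array (vertical axis, log2 intensity minus that of 0 h) by hours of CP724,714, with 1 point per array and MCM2 as the thick grey line in every panel. CDK4 is low from 3 to 9 h while MCM2 is 0.21 below its start at 9 h (0.43 under median scaling). CDK2 rises by 0.63 at 6 h (0.46 under median scaling) while MCM2 is still 0.74 below its start, and CDKN1A drops first at 6 h and again at 36 h.

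Both D cyclins that could be followed were detected on all 16 arrays. CCND1, cyclin D1, which links growth factor signals to CDK4 and CDK6, read 12.44 at 0 h, 13.16, 13.09 and 13.47 from 3 to 9 h, 12.95, 12.66, 12.74 and 12.69 from 12 to 21 h, 13.11, 12.49, 12.82 and 12.91 from 24 to 33 h, and 12.99, 12.61, 12.79 and 12.90 from 36 to 45 h. All 15 treated arrays lay above the untreated one (14 under median scaling), the highest 2.04-fold at 9 h, a statement that rests on the single 0 h array. CCND3, cyclin D3, ran from 13.07 at 15 h to 13.69 at 42 h, with a value of 13.12 untreated and of 13.46, 13.62 and 13.62 on the arrays of 3, 6 and 9 h. For neither gene was the time course called (adjusted p = 0.338 for CCND1 and 0.156 for CCND3, limma).

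Both cyclins were lower at 12-21 h than at 6-9 h. CCND1 differed by -0.52 ± 0.18 (SE; adjusted p = 0.0291, limma) and CCND3 by -0.43 ± 0.09 (adjusted p = 0.00104), and for CCND3 all 4 arrays of 12-21 h lay below both of 6-9 h. Under median scaling these differences were -0.13 (adjusted p = 0.678) and -0.06 (adjusted p = 0.835), so the calls rest on the scaling. That of CCND1 was also lost without the 9 h, 15 h, 18 h or 21 h array, the smallest change being -0.33 without the dim 9 h array. CCND3 was higher at 36-45 h than at 24-33 h by 0.20 ± 0.07, with an adjusted p of 0.0569, and passed without the 0 h, 3 h or 39 h array.

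CDKN1B, which encodes p27, is the inhibitor that accumulates in resting epithelial cells. It read 10.04 and 10.33 at 0 and 3 h, 9.88 and 9.73 at 6 and 9 h, 9.72, 10.07, 10.53 and 10.25 from 12 to 21 h, 9.77, 10.06, 9.95 and 10.13 from 24 to 33 h, and 10.29, 10.51, 10.36 and 10.40 from 36 to 45 h. The 4 last arrays lay above all 4 of 24-33 h, by 0.41 ± 0.13 (SE) in the means, with an adjusted p of 0.0372 (limma) that was lost without 7 of the 16 arrays in turn (up to 0.124) and under median scaling (0.42, adjusted p = 0.102). Over the whole course the gene was not called (adjusted p = 0.258), whereas under median scaling it was (adjusted p = 0.021). On that scale the line rose by 0.86 over 45 h and the mean of 12-21 h lay 0.80 above that of 6-9 h.

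CDKN1C, which encodes p57, an imprinted inhibitor of the same family, was close to background at 7.99 to 8.29. The arrays from 0 to 9 h read 8.19 to 8.29 and all 12 later ones 7.99 to 8.13, without overlap. Under median scaling they did overlap, with 8.115 at 3 h below 8.117 at 36 h and 8.124 at 42 h. The fall from 6-9 h to 12-21 h was -0.25 ± 0.03 (SE; adjusted p = 8.19e-06, limma). The background correction used here compresses such values. With the correction fitted to the signals alone, the fitted span of this gene was 0.99 in place of 0.27, so the size of its change is not determined here.

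Over all tested probes, calls were more frequent for early than for late slopes, and the members followed the same order. A linear trend over 45 h was called for 2 of the 8 genes, both down (CDK6 and CDKN1A), beside 24.4% of all tested probes. The slope from 0 to 21 h was called for 4, of which CDK2 rose and CDK6, CDKN1A and CDKN1C fell, beside 30.2% of probes. The slope from 24 to 45 h was called for CDKN1A alone, beside 5.07%, and a difference of the slopes for CDK2 and CDKN1C, beside 24.8%.

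The window comparisons showed the turn more directly. They were added after the files were seen, so their p-values, here and above, come from windows that were not set in advance. From 6-9 h to 12-21 h, 6 of the 8 genes were called, beside 34.7% of all tested probes: CDK2 and CDK4 were higher, by 0.37 ± 0.11 (SE) and 0.83, and CCND1, CCND3, CDK6 and CDKN1C were lower. CDK6 differed by -0.61 ± 0.19, which became -0.12 under median scaling (adjusted p = 0.769, limma) and was also lost without the 6 h or the 21 h array, and the rise of CDK2 lost its call without the 6 h array. CDKN1A and CDKN1B were not called here, but under median scaling both were higher, by 0.58 (adjusted p = 0.0341) and 0.80 (adjusted p = 0.00322). From 24-33 h to 36-45 h, 3 of the 8 were called, beside 19.8% of probes: CDKN1A was lower, and CDKN1B and CDKN1C (by 0.08, lost without 5 of the 16 arrays in turn) were higher. The arrays of a window are successive hours of 1 course and not replicates, so these tests measure the scatter between neighbouring hours.

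**Figure D3:**
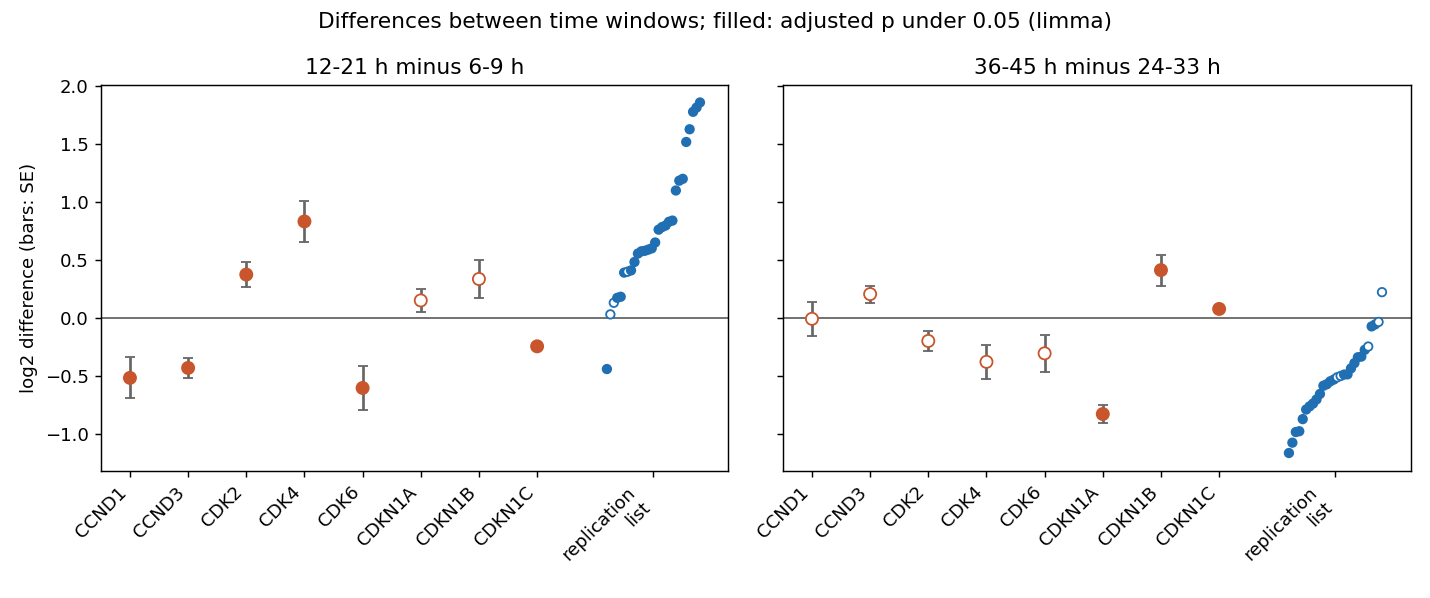
Differences of mean log2 intensity between time windows (vertical axis) for the 8 detected genes, with bars of 1 SE, and for the 28 tested genes of the replication list as a sorted run of blue points. Filled points passed an adjusted p of 0.05 in limma: 24 replication genes were higher at 12-21 h than at 6-9 h and 23 were lower at 36-45 h than at 24-33 h, while CDK4 sits with the rises at 0.83 and CDKN1A with the falls at -0.83.

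The replication genes set the clock against which the members were read. MCM2, a subunit of the helicase that is loaded at origins in G1, read 8.96 at 0 h, 8.13, 8.22 and 8.76 at 3, 6 and 9 h, 9.24, 9.12, 8.98 and 8.97 from 12 to 21 h, 9.42, 9.06, 8.95 and 8.91 from 24 to 33 h, and 8.48, 8.61, 8.57 and 8.54 from 36 to 45 h. It was higher at 12-21 h than at 6-9 h by 0.59 ± 0.18 (SE; adjusted p = 0.0174, limma) and lower at 36-45 h than at 24-33 h by 0.53 ± 0.15 (adjusted p = 0.0167). CCNE2, cyclin E2, the partner of CDK2 and itself an E2F target, was dim. Its deposited detection p passed on 4 arrays, although its signal was 1.33 to 3.99 times the signal cut. It ran from 8.08 at 6 h to 8.89 at 24 h and was lower at 36-45 h than at 24-33 h by 0.34 ± 0.09 (adjusted p = 0.0122).

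Of the replication list (helicase loading factors, polymerase accessory factors and nucleotide enzymes; 29 genes in the table, 28 tested), 24 depended on time, beside 41.9% of all tested probes. From 6-9 h to 12-21 h 24 rose and 1 fell, beside 34.7% of all tested probes called in either direction, with a list median of 0.62 beside -0.01 over all tested probes. From 24-33 h to 36-45 h 23 fell and 0 rose, beside 19.8%, with a median of -0.52 beside 0.00, and under median scaling the counts were 25 and 19. The widest early slopes called were those of CDT1, the licensing factor, at 2.27 ± 0.45 (SE) over 21 h, and of UHRF1, a chromatin factor of S phase, at 1.89 ± 0.58. POLA, the catalytic subunit of polymerase alpha, ran against the list at -0.55 ± 0.17. Late slopes were called for 5 genes of the list, beside 5.07% of all tested probes. The steepest were those of RRM2, the small subunit of ribonucleotide reductase, at -1.46 ± 0.39, and of GMNN, the inhibitor of CDT1, at -1.22 ± 0.29. CDK4 and MCM2 were both low at 3 and 6 h. On the dim 9 h array MCM2 was 0.21 below its start while CDK4 was still 0.88 below, and CDK4 returned at 12 h. Under median scaling the 9 h values lay 0.43 and 1.52 below. MCM2 read 8.13 and 8.22 at 3 and 6 h, close to background, where changes are compressed, so the gap between the 2 genes is not sized here. CDKN1A made its second fall between the arrays of 33 and 36 h, after a flat stretch. MCM2 also dropped there, from 8.91 to 8.48, but it had already been declining since the 24 h array, which read 9.42. With arrays scaled to a common median, MCM2 fell from 9.65 to 9.03 between 24 and 27 h. Its drop between 33 and 36 h was smaller on that scale, from 8.79 to 8.48. CDK2 was 0.63 above its start at 6 h, when MCM2 was 0.74 below its own. Under median scaling these values were 0.46 above and 0.73 below, and the larger part of the rise of CDK2 came at 12 h, when MCM2 returned.

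The timing was tested within each set of 8 arrays by correlating each of the 8 genes with MCM2 and CCNE2, in 32 pairs. Among the arrays of 0 to 21 h, CDK4 correlated with MCM2 (Pearson's r = 0.91, exact two-sided permutation p = 0.00104, adjusted over the 32 pairs 0.0321; Spearman's rho = 0.81, exact p = 0.0218). Without the 2 arrays farthest from the median of MCM2, 3 h and 6 h, r was 0.85. With CCNE2 in the same arrays CDK4 did not pass (r = 0.65, adjusted exact p = 0.151), and r was -0.20 without those 2 arrays. CDKN1C ran against MCM2 (r = -0.80, exact p = 0.0089, adjusted 0.0475; rho = -0.76, exact p = 0.0368), and r was -0.72 without the same arrays. CDK2 had an r of 0.60 with MCM2 (adjusted exact p = 0.15) and of 0.78 under median scaling (adjusted exact p = 0.092), and no lag between the genes was tested.

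Among the arrays of 24 to 45 h, CDKN1A fell with MCM2 and CDKN1B ran against it. For CDKN1A r was 0.88 (exact permutation p = 0.00871, adjusted 0.0475; rho = 0.83, exact p = 0.0154), and 0.94 without the 24 h and 27 h arrays. For CDKN1B r was -0.91 (exact p = 0.00308, adjusted 0.0328; rho = -0.76, exact p = 0.0368), and -0.82 without them. The corresponding values with CCNE2 were 0.79 for CDKN1A (exact p = 0.00667, adjusted 0.0475; rho = 0.86, exact p = 0.0107) and -0.88 for CDKN1B (exact p = 0.00201, adjusted 0.0321; rho = -0.79, exact p = 0.0279), or 0.98 and -0.85 without the same arrays. CDK4 gave 0.81 with MCM2 in this set, with an adjusted exact p of 0.076.

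These 6 pairs passed by r, whereas by rho 0 of the 32 pairs did, the lowest adjusted exact p being 0.098, and 12 had an unadjusted exact p under 0.05. The share of all tested probes that would pass the same test was not computed, so the 6 pairs cannot be set against it. Successive arrays of 1 course are not independent, and 2 genes that each take a step at the same hour correlate whatever links them. Under median scaling CDK4 with MCM2 (early, 0.95) and CDKN1A with MCM2 (0.88) and CCNE2 (0.81) passed, and without background correction CDK4 with MCM2 (0.88) and CDKN1B with MCM2 (-0.90) and CCNE2 (-0.90) did. CDK4 with MCM2 among the early arrays was the only pair of the 6 that passed in all 3 versions.

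**Figure D4:**
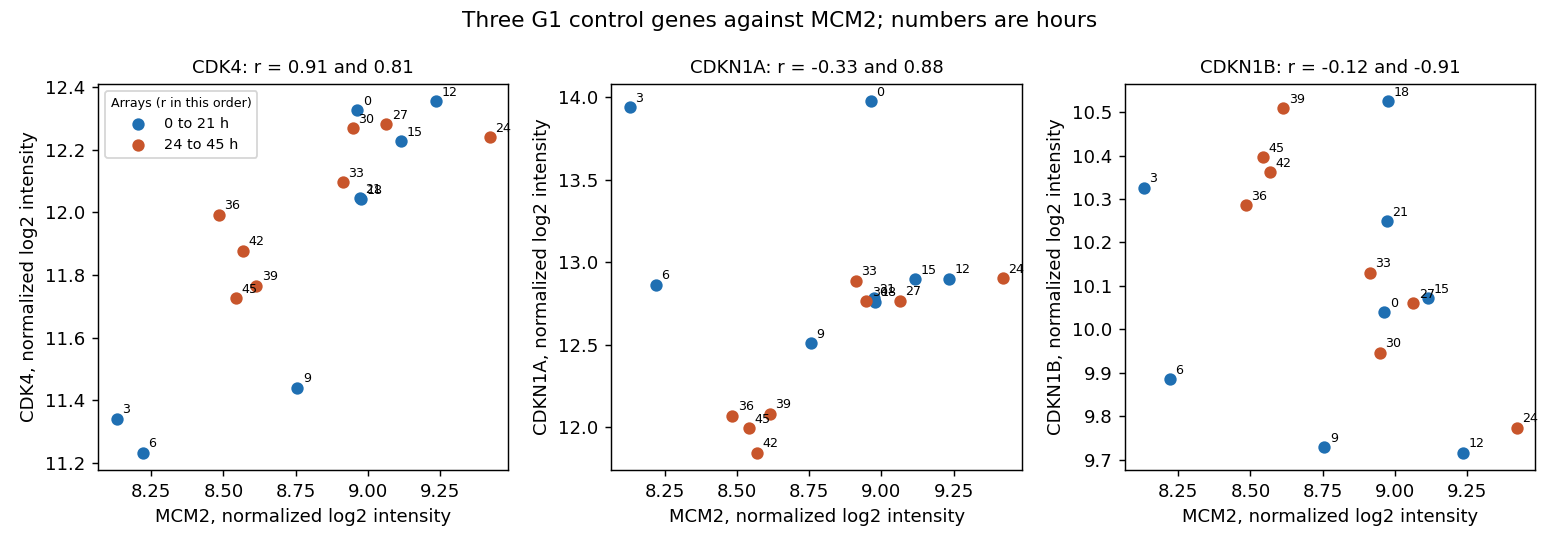
Normalized log2 intensity of CDK4, CDKN1A and CDKN1B (vertical axes) against that of MCM2 (horizontal axis), 1 point per array with its hour, blue from 0 to 21 h and orange from 24 to 45 h. CDK4 correlates with MCM2 in the early arrays (r = 0.91), while CDKN1A (0.88) and CDKN1B (-0.91) separate the arrays of 36 to 45 h from those of 24 to 33 h.

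The start regions of CDK4 and MCM2 are shown because these genes correlated at 0 to 21 h. They are RefSeq promoter windows of GRCh38.p14, from 250 bases before to 50 after the start, 5′ to 3′ on the strand of the gene. Capitals mark E-boxes (CACGTG) and the E2F form TTTCGCGC, both strands searched, with overlapping matches run together. MCM2 lies on the plus strand at chr3:127598161-127598460 and CDK4 on the minus strand at chr12:57752261-57752560.
MCM2: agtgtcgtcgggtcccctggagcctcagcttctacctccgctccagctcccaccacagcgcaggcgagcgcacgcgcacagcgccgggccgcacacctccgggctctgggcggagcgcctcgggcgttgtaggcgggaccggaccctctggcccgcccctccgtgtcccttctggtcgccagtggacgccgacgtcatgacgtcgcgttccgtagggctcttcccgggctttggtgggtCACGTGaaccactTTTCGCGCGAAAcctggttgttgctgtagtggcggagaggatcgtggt
CDK4: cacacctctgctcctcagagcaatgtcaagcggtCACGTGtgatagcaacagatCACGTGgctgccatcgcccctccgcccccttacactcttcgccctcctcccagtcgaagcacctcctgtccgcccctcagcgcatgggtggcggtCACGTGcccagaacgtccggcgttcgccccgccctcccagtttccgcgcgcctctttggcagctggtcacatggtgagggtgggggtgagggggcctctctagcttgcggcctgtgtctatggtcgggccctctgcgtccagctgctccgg

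The MCM2 window holds 1 E-box and 2 overlapping matches of TTTCGCGC, 1 on each strand. The CDK4 window holds 3 E-boxes and 0 matches of TTTCGCGC or of the related form TTTGGCGC. Among the 35116 promoter windows of the table, 7.26% hold an E-box, 0.515% hold TTTCGCGC and 0.652% hold TTTGGCGC. Of the 10 members, 6 have an entry in that table (CCND3, CDK4, CDK6, CDKN1A, CDKN1B and CDKN2B), and 0 of these 6 hold either E2F form. The forkhead sequence TGTTTAC, found in 3.42% of windows, occurs in 1 of 3 windows of CCND3 and in none of the other members. These are matches of letters only, and binding was not measured.

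The partners of the members gave the rest of the pathway. From a list of 26 such genes in the table (cyclins E and A, pocket proteins, E2F and DP factors, SKP2 and CKS1B, other INK4 genes and the CDK-activating kinase), 25 were tested. From 6-9 h to 12-21 h 8 rose and 1, E2F5, fell, with a list median of 0.05, a count near the 34.7% of all tested probes called there. From 24-33 h to 36-45 h 1, CDKN2C, rose and 10 fell, with a median of -0.12, beside 19.8% of all tested probes. CCNE1, cyclin E1, was the gene not tested, since its deposited detection p, which did not follow its signal, passed on 0 arrays.

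Of the called early slopes among the 25 tested genes of this list, 3 were upward and 1 downward, a share below the 30.2% of all tested probes. CCNA2, cyclin A2, the later partner of CDK2, had an early slope of 1.92 ± 0.46 (SE) over 21 h (adjusted p = 0.0051, limma), and E2F2, an activating E2F, one of 1.64 ± 0.42 (adjusted p = 0.00817). E2F6, a repressor, was at -0.40 ± 0.14 (adjusted p = 0.0354). CCNA2 ran from 0.41 of its 0 h level at 3 h to 1.86 times that level at 21 h, to 1.03 at 24 h, to 1.62 at 33 h and to 0.68 at 45 h. Its drop from 21 to 24 h falls at the border between the 2 sets of arrays and cannot be told apart from it. E2F1, another activating E2F, stood between 0.52 and 0.78 of its 0 h level on all 15 treated arrays, and its early slope was not called (-0.17, adjusted p = 0.565); it is named here after its values were seen.

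RBL2, the pocket protein p130 that is known for holding E2F targets silent in resting cells, rose early and stayed high. It was 1.15 times its untreated level at 6 h, 1.90 times at 12 h and 2.21 times at 45 h. The untreated level of 8.28 lies near background, where changes are compressed, so the size of the rise is not determined here. Its early slope was 1.23 ± 0.16 (SE, adjusted p = 7.24e-05, limma), and its window of 36-45 h differed from that of 24-33 h by 0.02 ± 0.08. The other pocket proteins, RB1 and RBL1, read near background and were not called over time (adjusted p = 0.732 and 0.113, spline in limma).

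Among the called late slopes of this list, 1 was upward and 3 downward, beside 5.07% of all tested probes called in either direction. CDKN2C, p18, an INK4 relative of the undetected CDKN2B, had a late slope of 0.60 ± 0.17 (SE; adjusted p = 0.0443, limma) and was 1.79 times its 0 h level at 39 h. SKP2, the substrate receptor of the ubiquitin ligase that marks p27 for degradation, had a late slope of -1.01 ± 0.27 (adjusted p = 0.0358) and stood at 0.78 of its 0 h level at 36 h. CCNE2 had a late slope of -0.58 ± 0.13 (adjusted p = 0.0181).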

How the data were processed

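The values the authors deposited are, for each of 20589 probes on 16 Illumina arrays, a signal intensity before normalization and a detection p-value against negative controls. Per the labels, biotinylated cRNA was made from total RNA, and the study's methods name quantile normalization. In 1482 rows (7.2%) the deposited detection p-value was not a multiple of 1/708, CDK2, CDKN1A, CDKN2B, CCNE1 and CCNE2 among them. In some such rows it did not follow the signal (CDKN1A failed at 42 and 45 h although at least 19.1 times the signal cut of its array). How many of these rows did so was not tested. Intensities were background-corrected in limma 3.58.1 (R 4.3.3) from those detection p-values, with an offset of 16, quantile-normalized and taken to log2. This correction compresses changes of dim probes: the fitted span of CDKN1C was 0.27, and 0.74 with no background correction. Which part of the correction does so was not tested. Tests covered the 12321 probes that reached a detection p under 0.05 on at least 3 arrays. Each fit was an lmFit with trended eBayes: a spline of hours with 4 degrees of freedom, a line over 45 h, a line within each set of 8 arrays, and means of 0-3, 6-9, 12-21, 24-33 and 36-45 h. P-values were Benjamini-Hochberg adjusted over all tested probes. Correlations used all 40320 orders of 8 arrays. The fits were tested on simulated data. The named genes are all members, MCM2, CCNE2, the 2 largest called rises and falls in each slope of both lists, and the 3 genes most like each of the 3 members with the widest curves. E2F5 was named after its value was seen. RBL2, the smallest of the 3 called early rises of its list, lies outside this rule, as do RB1 and RBL1, given beside it. The members and lists were chosen with earlier results of these data known. The window comparisons were added after the files were seen. Alternatives covered scaling, background correction, filters, array weights and single arrays. With 1 array a time point, the number of arrays limits the precision.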

Additional observations from a re-analysis of the deposited data

Results flagged for a closer look

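The slopes of 4 genes differed between the arrays of 0 to 21 h and those of 24 to 45 h by a test of the difference itself (limma, log2 over 21 h, later minus earlier). For CDK2 the difference was -1.54 ± 0.28 (SE, adjusted p = 0.00185), from a slope of 1.31 to one of -0.23. For CDKN1C it was 0.37 ± 0.09 (adjusted p = 0.00729), from -0.28 to 0.09, at a level close to background. MCM2 turned by -1.46 ± 0.38 (adjusted p = 0.0113), from 0.62 to -0.84. CCNE2 turned by -0.80 ± 0.19 (adjusted p = 0.00665), from 0.21 to -0.58. The turn coincides with the change of background signal between the arrays, and the part of that change in it was not tested.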

How the results depend on the processing

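The counts of members called changed by over 1.5 times as follows, and the cause was not tested except where fewer probes or arrays entered. Median scaling gave 2 early slopes in place of 4, 0 late slopes in place of 1 and 3 correlated pairs in place of 6, and no background correction also gave 3 pairs. Keeping only probes detected on all 16 arrays, which drops CDKN1A, gave 1 linear trend in place of 2 and 0 late slopes. With no filter on dim probes, 0 late slopes and 1 change from 24-33 h to 36-45 h in place of 3 were called. Array weights gave 5 linear trends, 4 late slopes, 3 changes from 6-9 h to 12-21 h in place of 6 and 6 from 24-33 h to 36-45 h. The 8 arrays of 24 to 45 h alone gave 4 late slopes, of CCND3, CDK4, CDKN1A and CDKN1B. Leaving out 1 array at a time, linear trends ranged from 2 to 4 (4 without the 12 h array), slope differences from 2 to 5 (5 without the 0 h array), late slopes from 0 to 1 (0 without the 15 h or 18 h array or any of 24 to 45 h) and changes from 24-33 h to 36-45 h from 1 to 5 (5 without the 0 h or 3 h array, 1 without the 24, 30, 36 or 42 h array). With array weights the linear change of CDK4 was -0.49 (adjusted p = 0.0481), against 0.18 otherwise. Of the values for single genes under the alternatives of the design, 924 kept their call or value, 32 gained a call, 20 lost one, 26 moved and 1 reversed; under alternatives chosen after seeing the data these were 444, 14, 29, 7 and 0. No paired analysis was possible because 1 array was made per hour. Without replicates, the only error is the scatter about a fitted curve or window, and CCND2, CDKN2B, CDKN1C and CCNE2 lie too near background for their fold changes to be sized. The lowest arrays of MCM2, RBL2, E2F1, CDKN2C and SKP2 also read close to background, and fold changes taken from them carry the same limit.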

Other observations

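The genes whose courses were most like those of the 3 members with the widest fitted curves were found over the 16 arrays among tested probes with a fitted span of 1 or more. They are given as a description, since all courses share the same arrays. For CDKN1A they were ISG20L1 (r = 0.96), SCARB1, the HDL receptor (0.95), and SRPRB, a subunit of the signal recognition particle receptor (0.94). For CDK2 they were ELMO3 (0.96), SLCO4A1, an organic anion transporter (0.96), and RAC2 (0.96). For CDK6 they were EFNB2, the ligand ephrin-B2 (0.95), CDC14B, a phosphatase (0.93), and DCBLD2 (0.93).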
